A study of Homo sapiens with 6 samples.

Results

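The genes described here are 48 genes of S phase and DNA replication, taken by their symbols from a table of gene expression levels in BHT101 cells. All 48 were found among the 32896 genes of the table. BHT101 is a human line grown from an anaplastic thyroid cancer and is an established cell line. RNA was sequenced from cells given an SK4 plasmid (3 libraries) and from cells given a control plasmid (3 libraries), with polyadenylated RNA captured on beads and the strand kept. Both groups were the same line, both were transfected with a lipid reagent, and both were harvested after 48 h. SK4 is the calcium-activated potassium channel encoded by KCNN4, and the study looked for genes downstream of it. The sources used here give neither the promoter on the plasmids nor the share of cells that took them up. Each value may therefore be an average over transfected and untransfected cells. No label tells whether replicates were separate cultures, so the spread behind the p-values is that between libraries and may be technical. For control replicate 3 the treatment label has BHT102 and the other labels have BHT101, and the library was kept among the controls.

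Replication is prepared in G1, when the origin recognition complex, CDC6 and CDT1 load the MCM helicase onto DNA as an inactive double ring. At the start of S phase, cyclin E with its kinase partner, and the DBF4-dependent kinase, help turn the ring into an active helicase with CDC45 and GINS, and polymerases, the PCNA clamp and its RFC loader follow. Most of these genes are targets of E2F transcription factors, which RB holds back in G1, so their transcripts are commonly used as signs of cells in or near S phase. In a bulk sample, fewer cells in S phase and less RNA per cell cannot be told apart.

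Start site regions were looked up because E2F is the known regulator of these genes and because many members moved together between libraries, as described further on. RefSeq promoter stretches of GRCh38.p14, each 250 bases before to 50 bases after a start site, were present for 40 of the 48 genes, as 52 stretches. An E2F-type motif was searched on both strands in 4 spellings, and matches may overlap one another. The first was TTCCCGC. Another spelling was TTGGCGC. A further spelling was TTCGCGC. The last spelling was TTGCCGC. It was found in 34 of the 52 member stretches, 65.4%, and in 12.97% of all 35116 stretches of the same length. By gene, 32 of 40 members held it in at least 1 stretch. The box CCAAT stood in 59.6% of the member stretches and in 34.6% of all stretches. TTTGAA, a form of the element found in promoters of many G2 and mitosis genes, stood in 1.92% of the member stretches and in 15.2% of all. A match is a description of these letters and not evidence of binding. The stretches below show how the motif sits before the start site of 6 members, the first 3 lower in both of the libraries that stood apart (MCM6, RFC3, PCNA) and the other 3 not (CDT1, E2F1, GINS2). They were chosen after the values were seen. Capitals mark the motif on either strand, and each stretch is written 5′ to 3′ on the strand of its gene. The MCM6 stretch runs from 170 to 70 bases before the start at chr2:135876513-135876613, minus strand. The others run from 100 bases to 1 base before the start. RFC3 is at chr13:33818049-33818148, plus strand. PCNA is at chr20:5126623-5126722, minus strand. CDT1 is at chr16:88803689-88803788, plus strand. E2F1 is at chr20:33686386-33686485, minus strand. GINS2 is at chr16:85688955-85689054, minus strand.
MCM6: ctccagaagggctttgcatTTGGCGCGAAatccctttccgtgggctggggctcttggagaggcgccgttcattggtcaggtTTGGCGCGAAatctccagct
RFC3: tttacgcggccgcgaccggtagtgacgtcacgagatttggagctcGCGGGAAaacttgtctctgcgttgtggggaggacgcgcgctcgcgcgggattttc
PCNA: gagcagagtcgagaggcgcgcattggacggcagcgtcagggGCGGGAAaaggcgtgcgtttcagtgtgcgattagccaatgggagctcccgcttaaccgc
CDT1: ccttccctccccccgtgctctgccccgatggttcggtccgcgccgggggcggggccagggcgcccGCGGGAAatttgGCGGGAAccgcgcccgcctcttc
E2F1: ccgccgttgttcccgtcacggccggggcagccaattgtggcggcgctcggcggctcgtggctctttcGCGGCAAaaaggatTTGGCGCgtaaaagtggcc
GINS2: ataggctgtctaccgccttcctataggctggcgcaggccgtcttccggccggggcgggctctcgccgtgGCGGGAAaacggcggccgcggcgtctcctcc

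In MCM6, a subunit of the helicase, the same 10 bases occurred at 2 places, and in each of them the motif is read on both strands. In E2F1, which encodes an E2F factor itself, 2 motifs stood next to each other close to the start site. Some members lie close to a divergent neighbour. For 11 of the 48, or 22.9%, a protein-coding gene on the other strand starts within 1 kb in GENCODE release 29, against 7.38% of all protein-coding genes. MCM4 and PRKDC, which encodes a DNA repair kinase, start 2 bp apart, and TK1 and AFMID start 84 bp apart.

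The libraries held an estimated 29700000 to 38500000 fragments, and control replicate 3 was the shallowest. KCNN4 had 184.1, 147.7 and 169.2 FPKM in the SK4 libraries and 8.31, 8.26 and 8.52 FPKM in the control libraries. FPKM is a level per kilobase of transcript that is corrected for the depth of each library. KCNN4 was called higher (fold 18.8, limma adjusted p = 8.83e-07). In an exact permutation test, two-sided, p was 0.1, and 3 against 3 libraries allow none smaller. Epithelial keratins were present in every library. The 6 epithelial markers summed to 595 to 648 FPKM in SK4 and 577 to 626 FPKM in control libraries. Among them CDH1 was low, at 1.72 ± 0.217 FPKM in SK4 and 1.71 ± 0.0709 FPKM in control libraries (SD, n = 3 each). The 2 mesenchymal markers, VIM and CDH2, were present too. They summed to 220 to 231 FPKM in SK4 and 220 to 228 FPKM in control libraries. Thyroid follicular markers were nearly absent. Their sum over 7 genes was 0.46 to 0.53 FPKM in SK4 and 0.41 to 0.56 FPKM in control libraries, with TG and TSHR at 0.01 FPKM or less, and PAX8 highest. Of 5 leukocyte markers only CD14 reached 1 FPKM, and of 4 fibroblast markers only LUM did. LUM was well above it, at 27.2 ± 4.22 FPKM in SK4 and 25.0 ± 2.74 FPKM in control libraries (SD, n = 3 each). The leukocyte gene PTPRC, the collagen gene COL1A1 and the endothelial gene CDH5 were at or near 0. The division markers MKI67 and TOP2A were present in both groups, MKI67 at 5.76 ± 0.635 FPKM in SK4 and 5.46 ± 1.00 FPKM in control libraries, and TOP2A at 9.07 ± 1.38 and 8.52 ± 1.72 FPKM in the same order (SD, n = 3 each).

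No S phase gene was called higher or lower with the SK4 plasmid. Of the 48 members, 46 reached 1 FPKM in at least 3 libraries and were tested. The tested members lay between -0.17 (POLD3) and 0.17 (FAM111B) in log2 fold change, which is SK4 minus control on the scale of log2(FPKM + 0.5). The median was -0.025, which is 1.70% lower in the SK4 libraries, and 15 of the 46 were above 0. Over all 11139 tested genes the median was 0.011 and 57.9% were above 0. None of the 46 was called at an adjusted p below 0.05 (limma, Benjamini-Hochberg over all tested genes), where 0.00898% of all tested genes were called, a single gene. None had an unadjusted p below 0.05, against 1.65% of all tested genes. The smallest unadjusted p of a member was 0.134, for TK1 (limma adjusted p = 0.99997). For 45 of the 46 members the 95% interval stayed within 1.5-fold up or down, as it did for 96.8% of all tested genes. FAM111B, the least even member between libraries, was the exception, with an interval of -0.36 to 0.69 on the log2 scale.

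**Figure D1:**
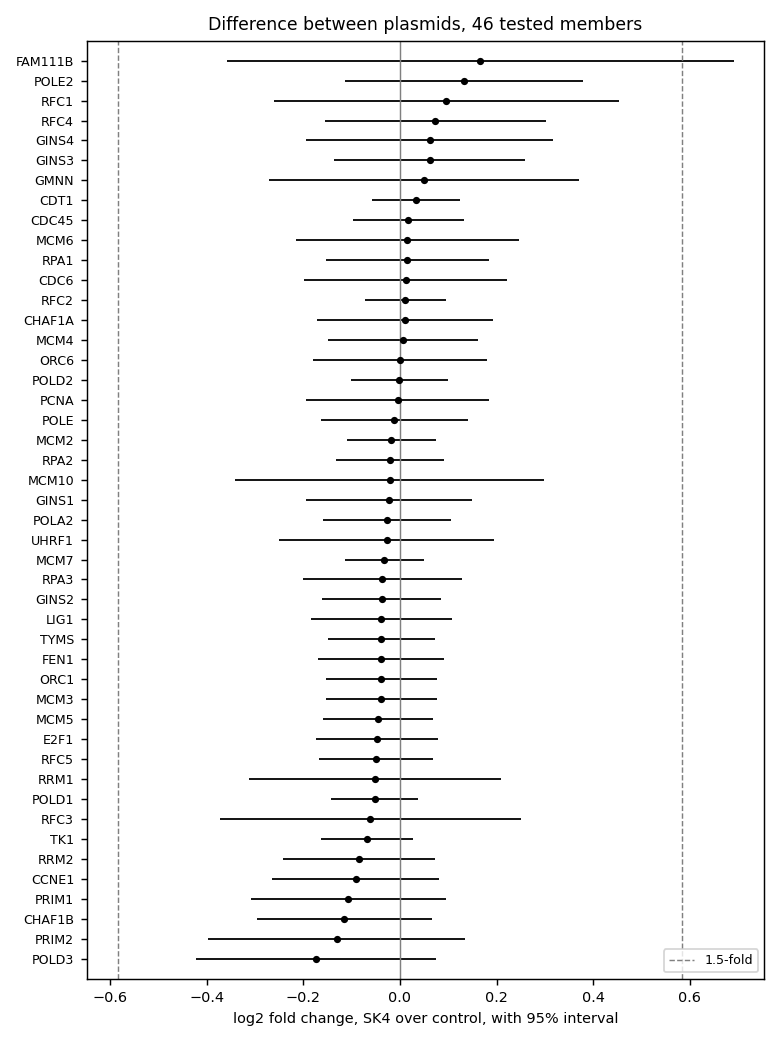
Log2 fold change of each tested member, SK4 over control, from limma on log2(FPKM + 0.5), with its 95% confidence interval (n = 3 libraries each). All 46 intervals include 0, dashed lines mark 1.5-fold, and only the interval of FAM111B passes a dashed line.

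The MCM subunits form a ring with 1 copy of each, but their transcripts did not have equal levels. MCM7 was the highest, at 168, 178 and 166 FPKM in SK4 and 175, 176 and 172 FPKM in control libraries. MCM4 was next, at 72.2, 65.4 and 70.8 FPKM in SK4 and 70.8, 73.9 and 63.0 FPKM in control libraries. Both groups overlapped for both genes. MCM3 had 51.6, 49.7 and 51.4 FPKM in SK4 and 53.9, 54.3 and 48.8 FPKM in control libraries. MCM2, the subunit that also binds histones, had 24.2, 25.2 and 24.9 FPKM in SK4 and 25.0, 25.7 and 24.6 FPKM in control libraries. Over the 6 libraries the ranges of neighbouring subunits in this order did not overlap, down to MCM2. MCM6 and MCM5 were the lowest and could not be separated, with means of 14.3 and 14.2 FPKM over the 6 libraries. MCM6 had 15.1, 13.4 and 14.4 FPKM in SK4 and 15.5, 15.1 and 12.1 FPKM in control libraries. MCM5 had 14.1, 14.3 and 13.4 FPKM in SK4 and 13.9, 14.7 and 14.5 FPKM in control libraries. The mean level of MCM7 was 12.2 times that of MCM5 in FPKM. Such comparisons between genes, here and below, rest on an annotation that is not given and are not corrected for GC content. Of the 6 subunits, 2 were above 0 and 4 below 0 in log2 fold change, from -0.045 (MCM5) to 0.015 (MCM6).

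Genes that load the helicase had log2 fold changes from -0.039 to 0.050, with 3 of 5 above 0. CDT1, the loading factor, was the highest of them, at 31.7, 33.5 and 31.8 FPKM in SK4 and 31.7, 31.0 and 32.1 FPKM in control libraries. GMNN encodes geminin, which binds CDT1 and stops a second round of loading. It had 15.6, 12.2 and 16.3 FPKM in SK4 and 15.7, 15.1 and 11.8 FPKM in control libraries, so 1 library of each group was low and the groups overlapped. CDC6, the ATPase that works with CDT1, had 12.8, 11.1 and 12.0 FPKM in SK4 and 12.1, 13.1 and 10.5 FPKM in control libraries. ORC1 and ORC6, subunits of the origin recognition complex, averaged 10.7 ± 0.359 and 10.9 ± 0.296 FPKM in SK4 libraries and 11.02 ± 0.291 and 10.9 ± 1.18 FPKM in control libraries (SD, n = 3 each). Over the 6 libraries the ranges of GMNN, CDC6, ORC6 and ORC1 overlapped from one to the next, and CDT1 stood above them.

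CDC45 and the 4 GINS subunits complete the active helicase, and MCM10 helps it start. In log2 fold change 3 of these 6 genes were above 0, and the median was -0.0018. CDC45 had 11.3, 11.8 and 11.6 FPKM in SK4 and 11.8, 11.5 and 10.99 FPKM in control libraries. GINS is a complex with 1 copy of each subunit, and its transcripts ranged from GINS2 with a mean of 18.2 FPKM over the 6 libraries to GINS4 with 1.91 FPKM. GINS1 and GINS3 lay between, at 12.7 and 6.80 FPKM, and the ranges of neighbours in this order did not overlap. GINS2 had 17.4, 18.4 and 18.2 FPKM in SK4 and 17.4, 18.7 and 19.4 FPKM in control libraries. MCM10 had 3.37, 2.63 and 3.12 FPKM in SK4 and 3.36, 3.51 and 2.46 FPKM in control libraries, again with SK4 replicate 2 and control replicate 3 lowest. GINS4 averaged 1.96 ± 0.271 FPKM in SK4 and 1.86 ± 0.200 FPKM in control libraries (SD, n = 3 each).

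**Figure D2:**
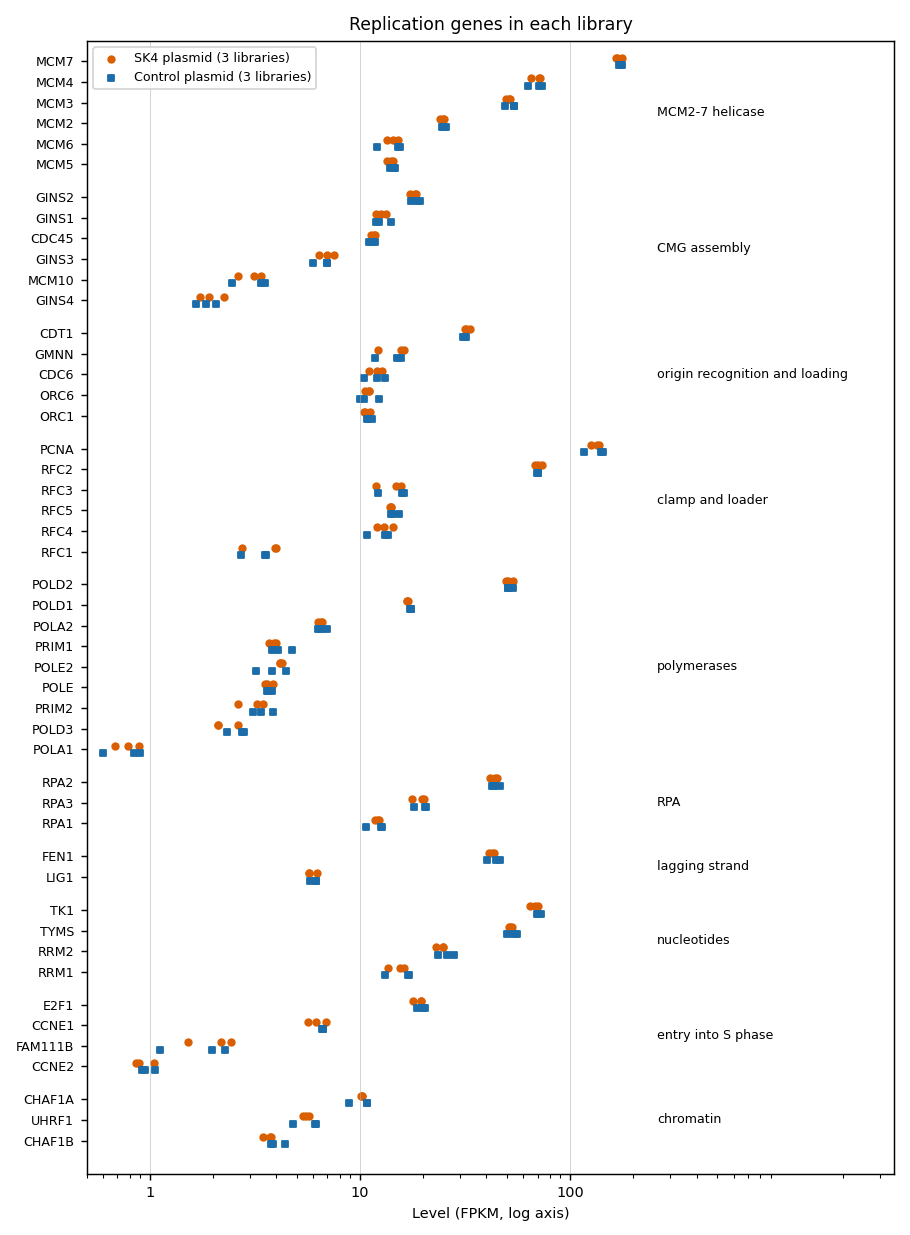
Level of each of the 48 members in FPKM (log axis) in the 3 SK4 libraries (orange circles) and the 3 control libraries (blue squares), grouped by role and ordered by mean level. Levels run from 0.783 FPKM for POLA1 to 172 FPKM for MCM7 as means over the 6 libraries, and the groups overlap for all members but POLD1.

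PCNA, the ring that holds polymerases on DNA, was the second highest member. It had 137, 125 and 135 FPKM in SK4 and 140, 144 and 116 FPKM in control libraries. The log2 fold change was -0.0051, with a 95% interval of -0.20 to 0.18. RFC, the loader that opens this ring, has 5 subunits, and RFC2 was far above the others at 68.4, 73.3 and 70.3 FPKM in SK4 and 69.4, 70.1 and 70.7 FPKM in control libraries. RFC3, RFC5 and RFC4 had overlapping ranges, with means of 14.4, 14.3 and 12.8 FPKM over the 6 libraries. RFC1, the largest subunit, was lowest, at 3.94, 2.74 and 3.96 FPKM in SK4 and 3.55, 3.54 and 2.71 FPKM in control libraries. In RFC1 and RFC3, 1 library of each group lay further from its group than the groups lay from each other. RFC3 had 15.7, 11.9 and 14.8 FPKM in SK4 and 16.3, 15.8 and 12.2 FPKM in control libraries. The members PCNA, RFC3, RFC5, POLD2, RPA2, FEN1, RRM2 and TYMS each have at least 1 pseudogene named after them in GENCODE release 29. How reads shared with them were counted is not given in the sources used here, so these 8 levels are uncertain.

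Polymerase genes included POLA1, the lowest member, and POLD1, the single member whose groups did not overlap. POLD1, the catalytic subunit of polymerase delta, had 16.9, 16.7 and 16.7 FPKM in SK4 and 17.6, 17.2 and 17.5 FPKM in control libraries, with every SK4 value below every control value. This is 1 of 46 tested members, where 5.34% of all tested genes did not overlap. The log2 fold change of POLD1 was -0.052 (95% interval -0.14 to 0.038, limma adjusted p = 0.99997). POLD3, an accessory subunit of the same polymerase, had 2.63, 2.11 and 2.10 FPKM in SK4 and 2.75, 2.81 and 2.33 FPKM in control libraries. Its log2 fold change of -0.17 (95% interval -0.42 to 0.075) was the largest in size of all members, and its groups overlapped. POLD2 averaged 51.4 ± 2.08 FPKM in SK4 and 51.5 ± 1.61 FPKM in control libraries (SD, n = 3 each). For polymerase epsilon, the catalytic subunit gene POLE had 3.84, 3.51 and 3.61 FPKM in SK4 and 3.61, 3.82 and 3.63 FPKM in control libraries. POLE2, its second subunit, had 4.17, 4.17 and 4.27 FPKM in SK4 and 4.45, 3.80 and 3.21 FPKM in control libraries, so the SK4 values were close together inside the control range. The log2 fold change of POLE2, 0.13, was the only one of 8 tested polymerase genes above 0, and the median of the 8 was -0.040.

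The primase subunits PRIM1 and PRIM2, which lay the RNA primers, had log2 fold changes of -0.11 and -0.13. PRIM1 had 3.68, 3.91 and 3.98 FPKM in SK4 and 4.07, 4.74 and 3.81 FPKM in control libraries. PRIM2 had 3.24, 2.63 and 3.46 FPKM in SK4 and 3.86, 3.39 and 3.09 FPKM in control libraries. Both overlapped between the groups. POLA2, a subunit of polymerase alpha, averaged 6.46 ± 0.132 FPKM in SK4 and 6.60 ± 0.319 FPKM in control libraries (SD, n = 3 each). POLA1, its catalytic subunit, was not tested because it was below 1 FPKM in every library, with 0.89, 0.68 and 0.79 FPKM in SK4 and 0.84, 0.90 and 0.60 FPKM in control libraries. Per length, the polymerase genes thus spanned from POLA1 to POLD2, whose mean over the 6 libraries was 65.7 times that of POLA1.

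RPA coats single-stranded DNA as a trimer. RPA2 was the highest of its genes, at 44.1, 41.4 and 44.8 FPKM in SK4 and 42.5, 46.2 and 43.5 FPKM in control libraries. RPA3 averaged 19.2 ± 1.33 FPKM in SK4 and 19.7 ± 1.34 FPKM in control libraries, and RPA1 12.1 ± 0.283 and 12.0 ± 1.13 FPKM in the same order (SD, n = 3 each). The 3 ranges did not overlap between genes. FEN1, the nuclease that trims Okazaki fragments, had 43.2, 41.3 and 42.7 FPKM in SK4 and 44.4, 46.3 and 40.2 FPKM in control libraries. LIG1, the ligase that seals them, was lower, at 6.22, 5.69 and 5.70 FPKM in SK4 and 6.19, 5.75 and 6.18 FPKM in control libraries. The log2 fold changes of the 5 genes lay between -0.038 and 0.015.

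The 4 genes of nucleotide supply were all below 0 in log2 fold change, with a median of -0.060, and none passed the test. TK1, thymidine kinase, had 64.4, 70.04 and 68.1 FPKM in SK4 and 69.8, 70.1 and 72.5 FPKM in control libraries, so SK4 replicate 2 lay inside the control range. Its log2 fold change was -0.069 (95% interval -0.16 to 0.027). RRM2, the regulated subunit of ribonucleotide reductase, had 24.9, 23.1 and 24.8 FPKM in SK4 and 25.9, 27.95 and 23.6 FPKM in control libraries (log2 fold change -0.085, 95% interval -0.24 to 0.073). Its partner RRM1 had 16.1, 13.6 and 15.5 FPKM in SK4 and 16.9, 17.1 and 13.1 FPKM in control libraries. TYMS, thymidylate synthase, had 52.7, 51.4 and 51.8 FPKM in SK4 and 54.2, 56.1 and 49.98 FPKM in control libraries. In RRM2, RRM1 and TYMS the highest values were controls 1 and 2 and the lowest control was replicate 3.

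CHAF1A and CHAF1B, subunits of the histone chaperone CAF-1, had log2 fold changes of 0.010 and -0.11. CHAF1B had 3.77, 3.45 and 3.74 FPKM in SK4 and 3.86, 4.39 and 3.76 FPKM in control libraries, overlapping by the lowest control value only. CHAF1A averaged 10.2 ± 0.0624 FPKM in SK4 and 10.2 ± 1.09 FPKM in control libraries (SD, n = 3 each). UHRF1, which helps copy DNA methylation, had 5.56, 5.71 and 5.36 FPKM in SK4 and 6.16, 6.09 and 4.82 FPKM in control libraries. E2F1, the transcription factor, had 19.6, 19.4 and 17.9 FPKM in SK4 and 20.4, 19.9 and 18.7 FPKM in control libraries (log2 fold change -0.047, 95% interval -0.17 to 0.079). CCNE1, cyclin E1, had 6.16, 6.89 and 5.67 FPKM in SK4, both above and below the narrow control range of 6.61 to 6.69 FPKM. CCNE2, cyclin E2, was too low to test, at 1.05, 0.86 and 0.89 FPKM in SK4 and 1.06, 0.95 and 0.92 FPKM in control libraries. FAM111B, a protease gene, had 2.18, 1.51 and 2.42 FPKM in SK4 and 1.98, 2.27 and 1.12 FPKM in control libraries, the widest spread of any member.

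For 42 of the 46 tested members the groups differed by no more than the within-group SD, both on the log2 scale. The other 4 were POLD1, POLD3, TK1 and CHAF1B, which is 8.70% of the members, against 17.8% of all tested genes. The within-group coefficient of variation had a median of 6.88% over the 48 members, from 0.926% for POLD1 to 28.7% for FAM111B. Counting error alone, from the estimated depth and the longest transcript of each gene, would give a median of 2.84%. It was exceeded by 45 of the 48. Among the 46 tested members, 11 were lowest in SK4 replicate 2 and 21 in control replicate 3. SK4 replicate 2 was lowest for 23.9% of the members and 12.4% of all tested genes, and control replicate 3 for 45.7% of the members and 46.4% of all tested genes. The highest library was control replicate 2 for 19 members, or 41.3%, against 18.4% of all tested genes. Control replicate 1 was highest for another 11. No test was run on these shares.

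**Figure D3:**
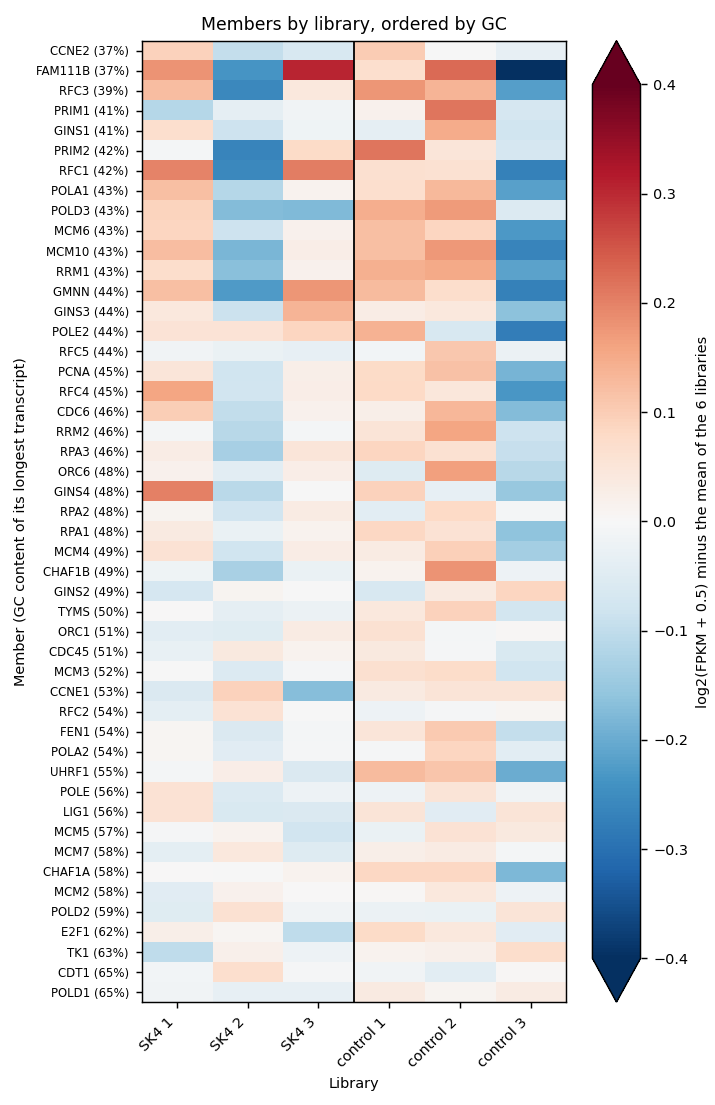
Deviation of each member from its mean over the 6 libraries, in log2(FPKM + 0.5), with SK4 libraries on the left, control libraries on the right and members ordered from low GC content at the top to high GC content at the bottom. Blue is lower, and it gathers in SK4 replicate 2 and control replicate 3 in the upper part, where GC content is below the tested members' median of 48.4%.

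The differences of these libraries from the rest of their groups went with GC content. The median member of SK4 replicate 2 was -0.059 from the mean of SK4 replicates 1 and 3 on the log2 scale, against -0.036 over all tested genes. In control replicate 3 it was -0.17 from the mean of control replicates 1 and 2, against -0.097 over all tested genes. Both differences were negative for 31 of the 46 members, against 5696 of all 11139 tested genes. The 2 differences share no library, and across the 46 members their Pearson correlation was 0.76, against 0.53 across all tested genes. Members share libraries and GC content, so this is a description and not a test. With the GC content of the longest transcript the correlation across members was 0.71 in SK4 replicate 2 and 0.70 in control replicate 3. With log transcript length it was -0.13 and -0.038 in the same order. Across the 11065 tested genes with a known GC content it was 0.55 and 0.51 with GC content, and -0.20 and -0.31 with log length. The 23 members of lower GC content (37.4% to 48.2%) had a median of -0.16 in SK4 replicate 2 and -0.23 in control replicate 3. The 23 of higher GC content (48.5% to 65.0%) had 0.037 and -0.035 in the same order.

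FAM111B, at 37.4% GC, was furthest from its group in both libraries, with differences of -0.48 in SK4 replicate 2 and -0.69 in control replicate 3. GMNN had -0.38 and -0.37, RFC3 -0.34 and -0.38, and MCM10 -0.26 and -0.41 in the same order. Some members of high GC content were above 0 in both, as TK1 (62.8% GC) with 0.080 and 0.052, CDT1 with 0.075 and 0.033, and POLD2 with 0.095 and 0.077. UHRF1 (54.6% GC) and CHAF1A (57.6% GC) did otherwise, at 0.059 and -0.010 in SK4 replicate 2 with -0.32 and -0.26 in control replicate 3. After each library was fitted to GC content by loess, the member medians were -0.018 in SK4 replicate 2 and -0.027 in control replicate 3. Over all tested genes the medians were then 0.0042 and 0.0047 in the same order. The correlation between the 2 differences was then 0.49 across members and 0.33 across all tested genes. An E2F-type motif was present in 21 of 25 members that were lower in both libraries and have a promoter stretch, and in 10 of 14 of the other tested members. The part of GC content in the library differences was not tested.

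**Figure D4:**
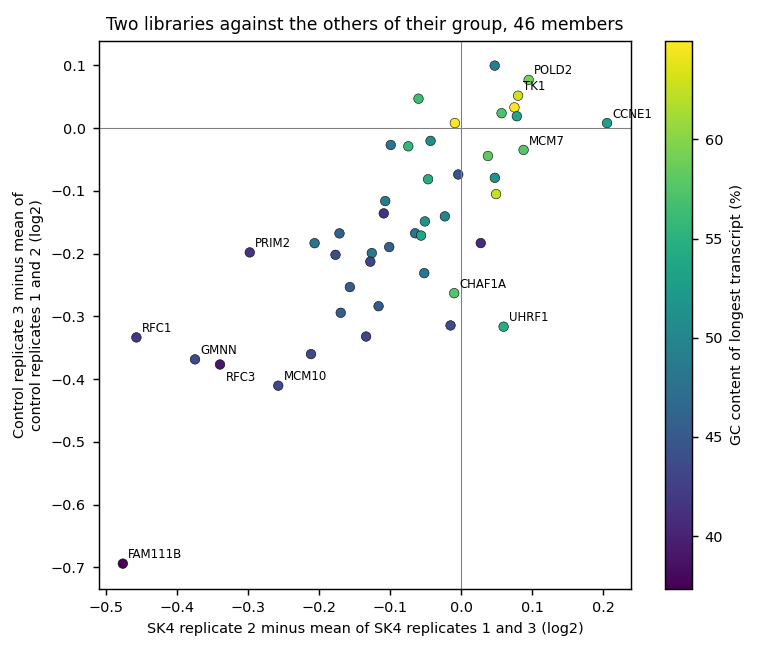
For each of the 46 tested members, the difference of SK4 replicate 2 from the other SK4 libraries (horizontal, log2) and of control replicate 3 from the other control libraries (vertical, log2), coloured by GC content. Points run from FAM111B at lower left, at -0.48 and -0.69, to high-GC members such as POLD2 near or above 0.

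Without SK4 replicate 2 and control replicate 3, no member was called. These 2 libraries were picked from the same values. The median member was further below its group in control replicate 3 (-0.17) than in SK4 replicate 2 (-0.059). Leaving both out therefore by itself moves SK4 minus control down. A count without overlap is also less strict with fewer libraries, so it cannot be set against the count in all 6. With 2 libraries a group, both SK4 values lay below both control values for 21 of 46 members, 45.7%, and above them for 2. Over all tested genes, SK4 was lower in this way for 19.3% and higher for 13.8%. The median member was then -0.045 in log2 fold change, against -0.0076 over all tested genes, and the smallest adjusted p of a member was 0.926, for MCM7 (limma). Leaving out control replicate 3 alone gave a member median of -0.064, against -0.021 over all tested genes. Leaving out control replicate 2 alone gave 0.0095, against 0.027 over all tested genes. The sign of the member median therefore depended on control replicate 2, the library in which 19 of the 46 members were highest. Whichever 1 library was left out, the member median was below the median of all tested genes.

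No further gene of the pathway was called. Of 47 further replication genes, 41 were tested, with 20 above 0 and 21 below 0 in log2 fold change, a median of -0.0031 and none called. The remaining origin recognition subunits ORC2, ORC3, ORC4 and ORC5 had log2 fold changes of -0.025, -0.0042, -0.072 and 0.067. ORC5 averaged 15.4 ± 0.960 FPKM in SK4 and 14.8 ± 1.94 FPKM in control libraries. The kinase gene CDC7 and its activator DBF4, which switch the loaded helicase on, had 0.018 and 0.064. CDK2, the partner of cyclin E, averaged 11.5 ± 0.472 FPKM in SK4 and 11.9 ± 0.238 FPKM in control libraries (SD, n = 3 each). DUT, another gene of nucleotide supply, had -0.016, and RRM2B, the p53-regulated reductase subunit, -0.12. PCLAF, DTL, ASF1B and DNMT1, all typical of S phase, lay between -0.0041 (PCLAF) and 0.011 (ASF1B).

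Regulators of these genes were not called either. Of 18 RB and E2F genes, 17 were tested, with 9 above 0, a median of 0.021 and none called. The pocket protein genes RB1 and RBL1 had log2 fold changes of 0.051 and -0.062. E2F4, a repressor form, was the highest E2F gene in FPKM among those named here, at 37.1, 36.7 and 35.5 FPKM in SK4 and 36.7, 37.1 and 36.5 FPKM in control libraries. E2F2, E2F3, E2F7 and E2F8 had -0.011, 0.099, -0.022 and 0.048, and their dimer partner TFDP1 had -0.00073. Of 13 S phase checkpoint genes, 11 were tested, with 5 above 0, a median of -0.015 and none called. CHEK1 and WEE1, kinases that hold back CDK activity when replication stalls or DNA is damaged, had -0.019 and 0.0025, CLSPN 0.076 and TIMELESS -0.051. None of the 3 lists had a gene with an unadjusted p below 0.05 (limma).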

How the data were processed

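The authors deposited 1 table of FPKM values for 32896 genes in 6 libraries, rounded to 2 decimals. HISAT2 and GRCh38 are named in the submitters' processing notes. The sources used here give no counting tool, strand setting or annotation. FPKM values are scaled for depth and length, and not for GC-dependent recovery of transcripts. No count model was used, because the unit is FPKM.

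Samples were grouped by their titles. No library was a copy of another, with at most 1.28% of tested genes at equal values in any pair. Depth was estimated from 561 single-exon genes shorter than 160 nt, whose lowest values are multiples of 1 fragment. Of the values up to 5 fragments, 99.4% to 99.5% were whole within 0.1. Depth limits the precision of the low members: the lowest, CCNE2, held about 91.0 fragments in 1 library, and 25 of the 48 held over 1000 in every library, counting error only.

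Genes that reached 1 FPKM in 3 or more libraries were tested with limma 3.58.1 in R 4.3.3 on log2(FPKM + 0.5), with a trended and robust prior variance, group as the only term and Benjamini-Hochberg adjustment over all 11139 genes. The fit was also run on simulated data. Their errors were independent between genes, so they lacked the library differences that went with GC content here. Fold changes on this scale understate the change of low genes. The exact permutation test used scipy 1.17.1. GENCODE release 29 (GRCh38) gave GC content, lengths and positions, and it may not be the annotation the authors used. Promoter stretches came from RefSeq.

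The members, the lists and the rule for named genes (all members, KCNN4, any called gene of the related lists and a fixed set from those lists) were chosen with earlier results of these data known. Values of some genes of that set are not reported here. The alternatives covered pseudocount, filter, scaling, library weights, prior variance, replicate block and leaving out libraries. The GC correction and the comparison of the libraries that stood apart were added after the data were seen.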

Additional observations from a re-analysis of the deposited data

How the results depend on the processing

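Under all 17 alternatives no member and no gene of the 3 related lists was called, and KCNN4 stayed called with log2 fold changes from 4.16 to 4.33. The median member stayed within 1 SD of the libraries (0.060 on the deposited scale) of its value, -0.025. It ranged from -0.064 to 0.0095 when 1 library was left out, against -0.021 to 0.029 over all tested genes. With median-ratio scaling the SD of the libraries was smaller, 0.017. The member median was then -0.037, against -0.0011 over all tested genes. After the GC correction the member median was -0.038, against -0.0036 over all tested genes. Of 772 member values, 770 stayed within 1 within-group SD of that member's main value. The filters, the prior variance and the replicate block cannot change a member's fold change here. Part of this count was therefore fixed in advance, and it is no measure of stability. The others were E2F1 at -0.12 with library weights and MCM7 at -0.073 without SK4 replicate 2 and control replicate 3. Signs were unstable: 28 of the 46 members changed sign under at least 1 alternative, while 16 stayed below 0 and 2, CDT1 and POLE2, above 0.

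The number of members without overlap, 1, was 5 with median-ratio scaling (5.30% of all tested genes), 2 with equal totals (5.55%), 6 after the GC correction (8.89%), 23 without both libraries that stood apart (33.1%), and 2 to 18 when 1 library was left out (10.2% to 20.9%), 18 of them without control replicate 3. Members with an unadjusted p below 0.05, 0 in all libraries, numbered 7 with library weights (8.12% of all tested genes), 2 after the GC correction (3.76%), 4 without both libraries (5.07%), and 0 to 5 when 1 library was left out (1.29% to 3.76%), 5 of them without control replicate 3. With fewer libraries, a count without overlap is less strict. Members lowest in control replicate 3, 21 as deposited, numbered 12 with median-ratio scaling and 9 after the GC correction, where the median member difference of that library was -0.059 and -0.027. Without both libraries, 3 genes were called higher and 1 lower over all genes, none a member. The replicate block called 1 gene, with a KCNN4 log2 fold change of 4.23 (limma adjusted p = 0.000148), and no member. Same-numbered libraries did not deviate together throughout (correlations over genes of 0.31, -0.41 and -0.15), and the numbers were not taken as pairs. SK4 replicate 2 and control replicate 3, which carry different numbers, had the highest correlation, 0.53. Their shared deviation weighs on the other correlations, so this check cannot exclude pairing. CCNE2 and POLA1 were too low to test.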
